A study of Oryza sativa with 3 samples.

Results

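The miR159 and miR319 families are represented by 8 of the 367 mature miRNA sequences counted in young panicles of rice, chosen as every row of the count table that is named miR159 or miR319 with any letter. Of these, 6 rows belong to miR159 and 2 to miR319. Young panicles of japonica plants were sampled in 3 genotypes, wild type and the untreated mutants ld-1 and ld-2, and each genotype gave 1 small RNA library. The labels used here state neither the cultivar, the plants pooled per library, the panicle stage nor the lesion of each allele. Culture was under glass or outdoors, without a record per library. Lodicules are small organs at the base of a grass floret whose swelling pushes it open, and the series title places the lodiculeless lesion in miR172b, another miRNA.

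The pair of families is an old one in plants and its members look alike. miR159 directs cleavage of transcripts of GAMYB and GAMYB-like MYB factors, which in rice act in gibberellin responses of the aleurone and in development of the tapetum and pollen. miR319 directs cleavage of transcripts of a group of TCP factors, which restrain cell proliferation in leaves and floral organs. In Arabidopsis the resemblance of the families lets miR319 recognise some MYB transcripts, whereas miR159 acts poorly on TCP transcripts.

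The 8 sequences are shown because the rows differ by so few bases. They are written 5′ to 3′ with T for U, as deposited, and the capitals mark the seed (bases 2 to 8), the part that leads target pairing. The first 5 share the seed TTGGATT, which no other row of the table had, and the remaining 3 have seeds that differ from it and from each other. The seed of miR319b also occurs in 1 row outside the families.
miR159a//miR159b: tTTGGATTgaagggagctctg
miR159f: cTTGGATTgaagggagctcta
miR159c: aTTGGATTgaagggagctcca
miR159d: aTTGGATTgaagggagctccg
miR159e: aTTGGATTgaagggagctcct
miR319b: tTGGACTGaagggtgctccc
miR319a: aGCTGCCGaatcatccattca
miR159a: tTGCATGCcccaggagctgca

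Counting bases from 1 at the 5′ end, miR159f differs from the sequence shared by miR159a and miR159b by T1C and G21A, so only the end bases change. The row miR159d differs by T1A and T20C, miR159c adds G21A to these and miR159e adds G21T. The 20-nt miR319b sequence lines up with the shared miR159 sequence from base 2 of the latter on, and then differs by T6C, A14T, T19C and G20C in miR319b positions. The row listed under miR319a is of another kind. It is 15 edits from miR159a//miR159b and 11 from its nearest relative among the 8 rows, and its seed GCTGCCG occurs in no other row. Set antiparallel to miR319b without gaps, miR319a formed at most 10 base pairs (G:U pairs included), and the median over all rows outside the families was also 10. By this count miR319a did not pair with miR319b more than an ordinary row did. Pairing with bulges was not counted. Whether miR319a targets TCP transcripts was not tested, and they need not be its targets. The second row under miR159a, with the seed TGCATGC, is likewise 11 edits from miR159a//miR159b. No row outside the families lay closer than 7 edits to any of the 8.

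Summed over all miRNAs, the wild type library had 116818 reads, the ld-1 library 140807 and the ld-2 library 66642; values given in threes below keep this order. Levels are given as RPM (reads relative to library size) after scaling of the libraries to each other, called scaled RPM here. Since 1 read stood for 8.52, 8.27 and 12.9 scaled RPM, precision was lowest in ld-2. With 1 library per genotype no difference could be set against the spread between plants, no p-value was computed, and every interval is an exact 95% interval for counting error only. As a check of the labels, the miR172b row was read 298 times in wild type and 2 and 1 times in ld-1 and ld-2. The list of panicle phasiRNA triggers, which joins the miR2118 rows and miR2275, had 1293, 1208 and 2880 reads in sum, and all 12 of its rows with enough reads to be tested were of miR2118.

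Among the 8 rows, 4 were read and 4 were not. The sequence shared by miR159a and miR159b was read 53047, 69561 and 30304 times, or 452151, 575581 and 391972 scaled RPM, and it was the most abundant of the 367 rows in each library. Next came miR319b with 513, 769 and 200 reads, or 4373, 6363 and 2587 scaled RPM. In rank it stood at places 21, 14 and 26. Thus the leading miR159 row was read about as often as the rest of the table together. The miR319 family took 0.511%, 0.638% and 0.335% of all miRNA reads.

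The miR159f row had 154, 187 and 44 reads, or 1313, 1547 and 569 scaled RPM, and ranked at places 40, 39 and 57. The miR319a row had 84, 130 and 23 reads, or 716, 1076 and 297 scaled RPM, at places 50, 43 and 77. The 4 rows that were read kept 1 order of levels in every library, namely miR159a//miR159b, miR319b, miR159f and miR319a. Neighbours in that order were apart by more than counting error, except that in ld-2 the intervals of miR159f (414 to 764 scaled RPM) and miR319a (188.6 to 446) overlapped. Each of the 4 was highest in ld-1 and lowest in ld-2, except that with RPM of all miRNA reads miR159a//miR159b was as high in ld-2 as in wild type (log2 ratio 0.00).

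The rows miR159c, miR159d, miR159e and the second miR159a row had 0 reads in all 3 libraries. A count of 0, read with a limit of 3 counts, allows up to 25.6, 24.8 and 38.8 scaled RPM. The row miR159d is 2 edits from the dominant sequence, as is miR159f, so of 2 rows at the same distance from it 1 was read and the other was not. The labels do not say how a read that matches several of these rows was counted, so the counts of miR159f carry that doubt.

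**Figure D1:**
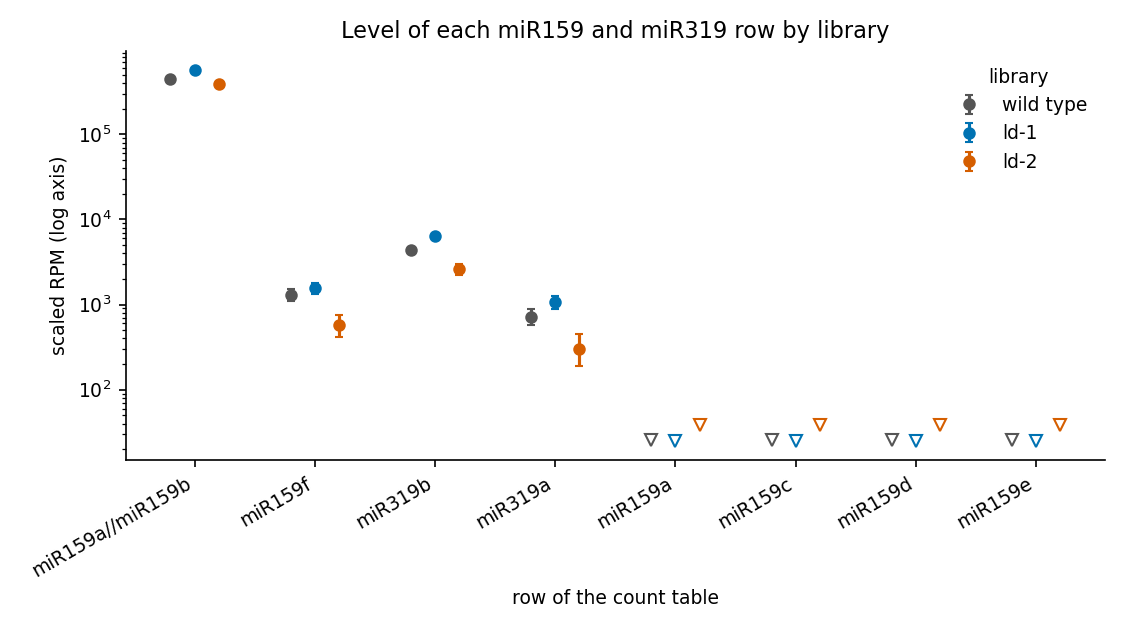
Scaled RPM (log axis) of the 8 rows in the wild type, ld-1 and ld-2 libraries, 1 library each. Circles are measured levels with exact 95% counting intervals (smaller than the circle for miR159a//miR159b), and open triangles mark the limit of 3 counts for rows with 0 reads; miR159a//miR159b lies near 452151 in wild type and the next row, miR319b, at 4373.

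Against wild type, the 4 rows that were read had log2 ratios above 0 in ld-1, and none reached 2-fold. The dominant miR159a//miR159b row, of the family against GAMYB transcripts, had a log2 ratio of 0.35 (0.33 to 0.36), or 1.27-fold. The TCP-targeting miR319b row was at 0.54 (0.38 to 0.71), or 1.46-fold. The miR319a row was at 0.59 (0.18 to 1.00), or 1.502-fold, and miR159f was at 0.24 with an interval that included 0 (-0.08 to 0.55). With RPM of all miRNA reads miR159f was at 0.01 (-0.30 to 0.33) and miR319a at 0.36 (-0.05 to 0.77), so that both intervals included 0. In such bulk samples a difference in the number of cells of a type and one in RNA per cell cannot be told apart.

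Rows with 30 or more reads over the 3 libraries were tested, and a row was listed when it differed by 2-fold or more and its interval excluded 0. The 4 read members passed this minimum, along with 105 other rows, and the 4 unread ones did not. Of the 109 tested rows, 6.42% were listed higher in ld-1 and 2.75% lower, and of the 4 tested members 0 were listed either way. All 4 lay above 0, as did 48.6% of the tested rows. The median log2 ratio of the 4 was 0.44, against -0.03 over all tested rows. From the highest ratio down, miR319a stood at place 14 of 109, miR319b at 16, miR159a//miR159b at 25 and miR159f at 35.

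In ld-2 the same rows stood below wild type, and the minor ones by more than the dominant one. The miR319a row went from 84 to 23 reads, a log2 ratio of -1.27 (-2.0004 to -0.59), or 2.41-fold lower. The miR159f row went from 154 to 44 reads, a log2 ratio of -1.21 (-1.72 to -0.71), or 2.31-fold lower. Both were listed lower, but with RPM of all miRNA reads miR159f came to -0.998 and was no longer listed. The miR319b row was at -0.76 (-1.0003 to -0.52), or 1.69-fold lower, and was not listed. The dominant miR159a//miR159b row was at -0.21 (-0.23 to -0.19).

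Thus 2 of the 4 tested members (1 with RPM of all miRNA reads) were listed lower in ld-2 and 0 higher, where 8.26% of all tested rows were listed lower and 20.2% higher. All 4 lay below 0, as did 54.1% of the tested rows. The median of the 4 was -0.98, against -0.08 over all tested rows. From the lowest ratio up, miR319a stood at place 4 of 109, miR159f at 7, miR319b at 14 and miR159a//miR159b at 43. The library that gave these values also held more of the anther-related miR2118 rows. All 12 tested rows of the miR2118 and miR2275 list (13 rows) were listed higher in ld-2 than in wild type, and the summed list was at 1.76 (1.66 to 1.85). It was at -0.14 (-0.26 to -0.03) in ld-1. The part of panicle stage or anther content in the lower miR319 and miR159f levels was not tested. As a matter of scaling alone, library sizes and scaling were also taken without the miR2118 rows. With these, miR319a was at -1.21 and miR159f at -1.15 in ld-2, and both stayed listed. That setting changes only the library factors and does not test stage or anther content.

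**Figure D2:**
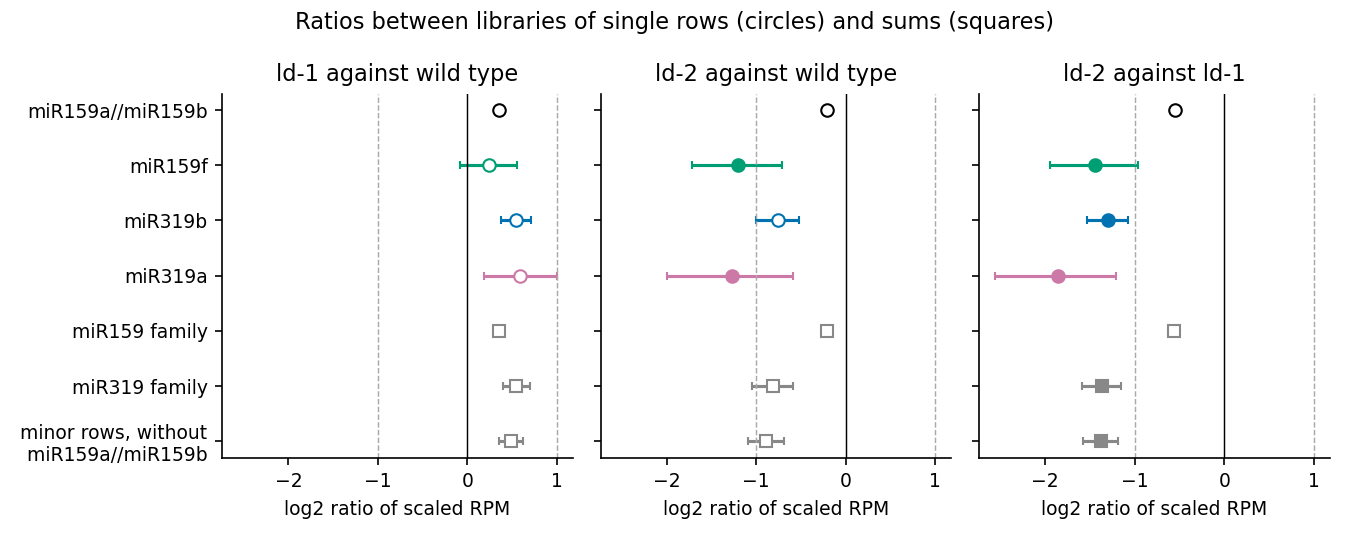
Log2 ratios of scaled RPM for the 4 read rows (circles) and for sums (squares) in the 3 comparisons of libraries, with exact 95% counting intervals; filled symbols were listed, and dashed lines mark 2-fold. The ld-1 values lie right of 0 and the ld-2 values left of it (with RPM of all miRNA reads, miR159a//miR159b in ld-2 lies at 0.00), with miR319a at 0.59 and -1.27.

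Between the mutants the minor rows differed most. The miR319a row had 130 reads in ld-1 and 23 in ld-2, a log2 ratio of -1.85 (-2.56 to -1.21), the lowest of the 109 tested rows. The miR159f row was at -1.44 (-1.95 to -0.96) and miR319b at -1.30 (-1.53 to -1.07), at places 4 and 5 from the lowest. So 3 of 4 members were listed lower, against 6.42% of all tested rows (19.3% were listed higher). With RPM of all miRNA reads miR319b came to -0.86 and lost its call, which left 2. Under that scaling miR159f was at -1.008 (-1.52 to -0.53), barely past 2-fold, and miR319a at -1.42 (-2.13 to -0.77). The dominant miR159a//miR159b row was at -0.55 (-0.57 to -0.53), 1.47-fold lower in ld-2 than in ld-1 and not listed. With RPM of all miRNA reads this row was at only -0.12 (-0.14 to -0.10). All 4 lay below 0, as did 59.6% of the tested rows. The median of the 4 was -1.37, against -0.11 over all tested rows.

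**Figure D3:**
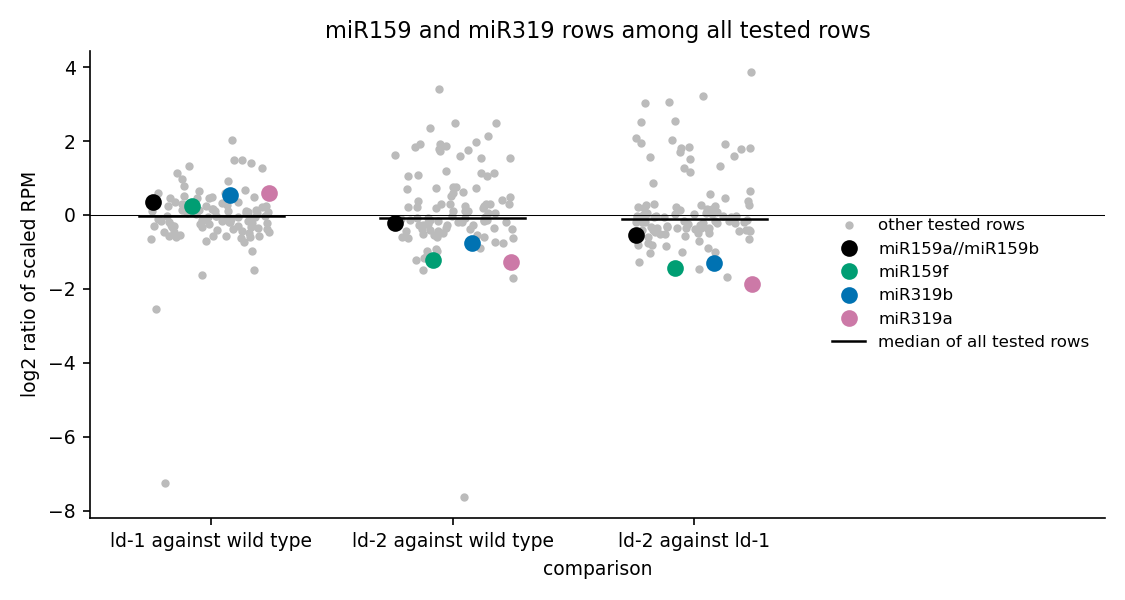
Log2 ratios of all 109 tested rows (grey) in the 3 comparisons, with the 4 read members in colour and the median of all tested rows as a black line; a ratio to a count of 0 is drawn at the limit of 3 counts, and horizontal scatter has no meaning. The members lie above the median in ld-1 against wild type and below it in ld-2, with miR319a the lowest row between the mutants at -1.85.

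The family sums follow the rows that fill them. Summed miR159 reads were 53201, 69748 and 30348 in the order wild type, ld-1 and ld-2, of which miR159a//miR159b made up 99.7%, 99.7% and 99.9%. The miR159 sum was therefore at 0.35 and -0.21 in the mutants, as its dominant row was. With RPM of all miRNA reads the miR159 sum was at 0.12 in ld-1 and at -9.3e-05 (-0.02 to 0.02) in ld-2. The miR159f row was 0.289%, 0.268% and 0.145% of the family's reads and weighs little in that sum. Summed miR319 reads were 597, 899 and 223, with log2 values of 0.55 (0.40 to 0.70) for ld-1 and -0.82 (-1.05 to -0.59) for ld-2. Between the mutants this sum was at -1.37 (-1.58 to -1.15), past 2-fold, and with RPM of all miRNA reads at -0.93, short of it. The sum of both families, 53798, 70647 and 30571 reads, took 46.1%, 50.2% and 45.9% of all miRNA reads. Without the dominant row 751, 1086 and 267 reads were left. In log2, that remainder was at 0.49 (0.35 to 0.63) for ld-1, at -0.89 (-1.10 to -0.69) for ld-2 and at -1.38 (-1.58 to -1.19) between the mutants, the last at -0.94 with RPM of all miRNA reads.

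Levels of the minor rows relative to miR159a//miR159b need no scaling between libraries, since both counts come from the same library. For every 1000 reads of the dominant row, miR319b had 9.67, 11.1 and 6.60. The miR159f row had 2.90, 2.69 and 1.45, and the miR319a row 1.58, 1.87 and 0.759. Summed, the minor rows had 14.2 (13.2 to 15.2) in the wild type library, 15.6 (14.7 to 16.6) in the ld-1 library and 8.81 (7.78 to 9.94) in the ld-2 library. The ld-2 library was the low one for each of the 3 rows, with an interval that did not overlap those of the other libraries.

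As a log2 ratio of these proportions, the summed minor rows in ld-2 were at -0.68 against wild type (-0.89 to -0.48), or 1.61-fold lower, and at -0.83 against ld-1 (-1.02 to -0.63). In ld-1 against wild type the value was 0.14 (0.0046 to 0.28). Single rows in ld-2 against wild type were at -1.06 (-1.79 to -0.38) for miR319a, -0.9996 (-1.52 to -0.51) for miR159f and -0.55 (-0.80 to -0.31) for miR319b. The share held by the dominant row hardly differed between these libraries, at 45.4% for wild type and 45.5% for ld-2. Dividing by it therefore nearly repeated the ratios with RPM of all miRNA reads. For ld-2 against wild type the latter were -1.06 for miR319a, -0.998 for miR159f and -0.55 for miR319b. The proportions to the dominant row thus add no separate evidence for a lower level of the minor rows in ld-2. The dominant row itself, set against all other miRNA reads, was at 0.00 (-0.02 to 0.03) in ld-2 against wild type and at 0.23 (0.21 to 0.25) in ld-1 against wild type.

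**Figure D4:**
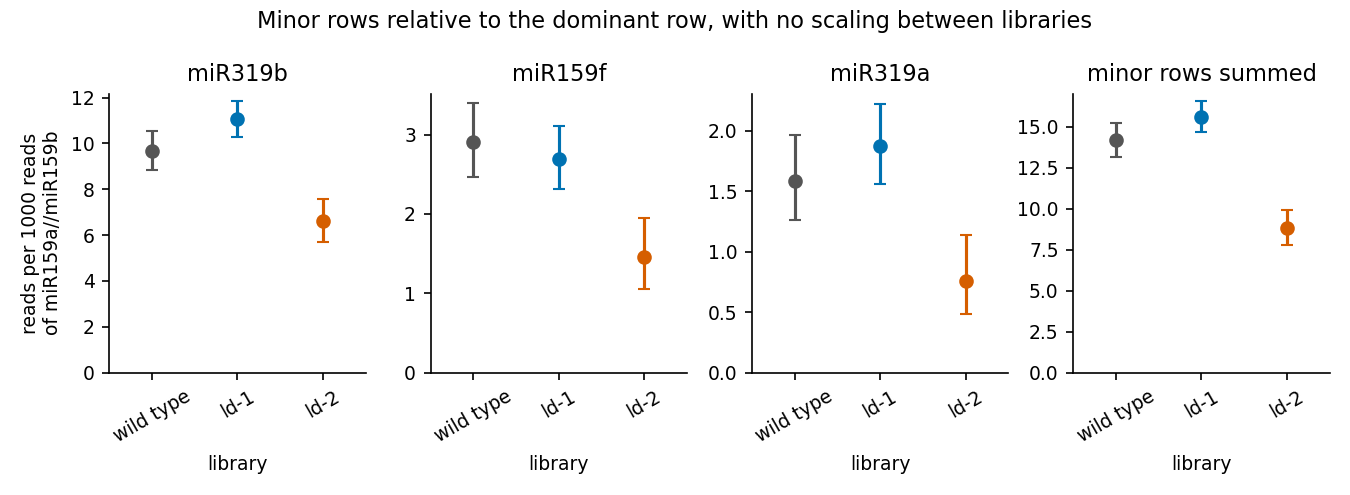
Reads of each minor row, and of the minor rows summed, per 1000 reads of miR159a//miR159b in the same library, with exact 95% counting intervals and vertical axes that start at 0. The ld-2 library is the lowest in each panel, at 8.81 for the sum against 14.2 in wild type and 15.6 in ld-1.

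The make-up of the minor rows was compared next. Of their summed reads, miR319b took 68.3% (64.8% to 71.6%), 70.8% (68.0% to 73.5%) and 74.9% (69.3% to 80.0%). The miR159f row took 20.5%, 17.2% and 16.5%, and the miR319a row 11.2%, 12.0% and 8.61%. Within the miR319 family, miR319a took 14.1% (11.4% to 17.1%), 14.5% (12.2% to 16.9%) and 10.3% (6.65% to 15.1%). The proportion of miR319a to miR319b in ld-2 against wild type was at -0.51 in log2, with an interval (-1.28 to 0.22) that holds both no difference and a 2-fold one. For miR159f to miR319b it was at -0.45 (-1.02 to 0.11). A difference of miR319a or miR159f from miR319b in how far they stood from wild type was not detectable at this depth, and miR319a was not compared with miR159f.

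The choice of scaling moved these ratios. The dominant miR159a//miR159b row held 45.4%, 49.4% and 45.5% of the reads, and with plain RPM of all miRNA reads its ratio in ld-2 was 0.00 in place of -0.21 and its ratio in ld-1 was 0.12 in place of 0.35. With TMM computed without the miR159 and miR319 rows its ratio in ld-2 was -0.27, and the median of all tested rows moved by 0.02 in ld-1 and -0.06 in ld-2. RPM of all miRNA reads moved that median by -0.23 in ld-1 and 0.21 in ld-2. With RPM miR319a in ld-2 kept its call at -1.06. Over all alternatives, the ratio of miR319b ranged from 0.31 to 0.63 for ld-1 and from -0.85 to -0.55 for ld-2.

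**Figure D5:**
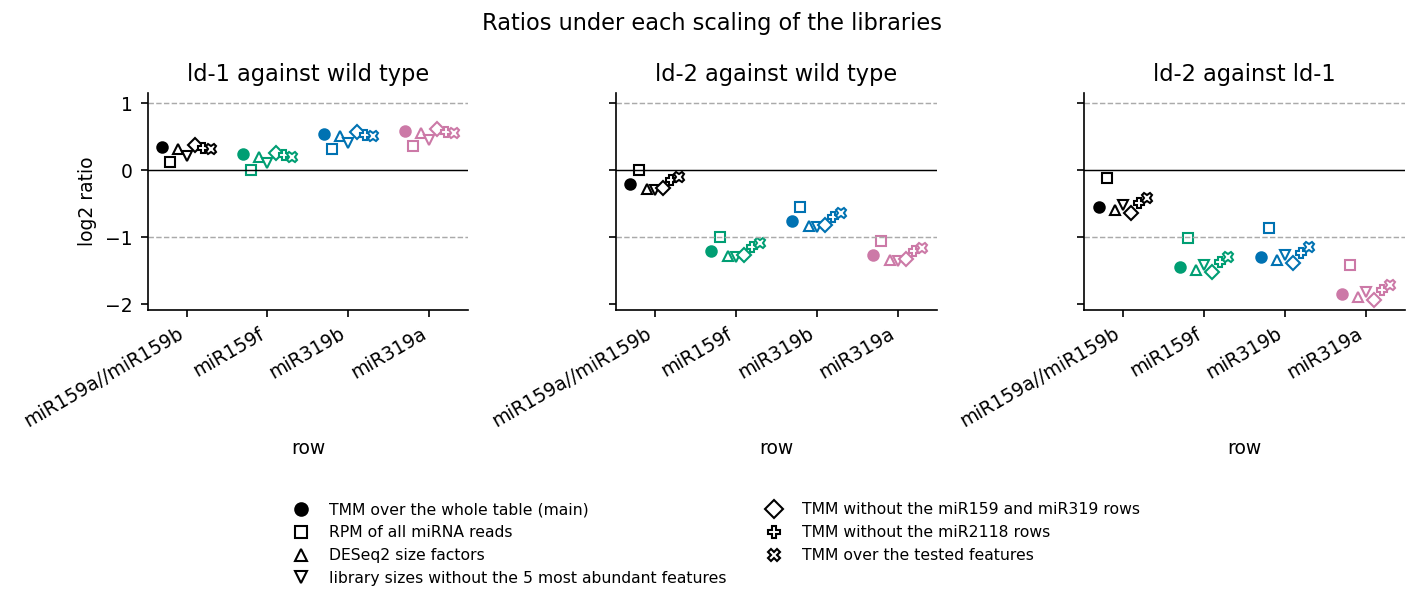
Log2 ratios of the 4 read rows under 7 scalings of the libraries, with dashed lines at 2-fold; the filled circle is the scaling used in the text. The open squares, RPM of all miRNA reads, lie closest to 0 in each panel, and with them miR159a//miR159b in ld-2 against wild type lies at 0.00.

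Families that lie near miR159 and miR319 in the network of panicle and leaf development were then placed beside them. The Arabidopsis genes of miR164 and miR396 are known to be activated by TCP factors and those of miR156 to respond to MYB33, a GAMYB-like factor. Of the 14 rows of these families 7 were tested. In ld-1, 1 was listed higher (miR164c) and 0 lower, with a median of -0.17. In ld-2, miR164c was again listed higher and 2 rows lower, with a median of -0.53. The latter were the miR156 row below and a miR396c row of 46, 38 and 13 reads, at -1.22. The sequence of that miR396c row is largely complementary to the other miR396c row below, and both were counted among the tested rows. Over all tested rows the shares listed were 6.42% (higher) and 2.75% (lower) for ld-1, with a median of -0.03. For ld-2 they were 20.2% and 8.26%, with a median of -0.08, so 1 of 7 higher in ld-2 is no more than the overall share. The sequence shared by miR156a to miR156j, which represses SPL factors, had 458, 464 and 92 reads and was at -0.02 (-0.21 to 0.17) for ld-1 and at -1.71 (-2.05 to -1.39) for ld-2. The other miR396c row, with 553, 505 and 185 reads, is of a family that represses growth-regulating factors, and was at -0.17 and -0.98 (-1.23 to -0.74). The row shared by miR164a, miR164b and miR164f, of a family against NAC factors, had 575, 480 and 262 reads and was at -0.30 and -0.53.

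The flowering and phase change families miR172, miR156, miR529 and miR535 had 7 tested rows of 13. Of these, miR172b was listed lower in both mutants and the miR156 row in ld-2, with list medians of -0.32 and -0.62. These are 1 and 2 of 7 rows, against 2.75% and 8.26% of all tested rows listed lower, whose medians were -0.03 and -0.08. The series title places the lesion in miR172b, so its call was known beforehand. The miR156 row was already counted in the list before. These counts therefore do not describe the list as a whole. The miR164c, miR396c (46 reads) and miR172b rows were named after their values were seen. The miR535 row, at 1713, 1116 and 732 reads, was at -0.66 and -0.62. The row shared by miR172a and miR172d had 522, 603 and 229 reads and was at 0.17 (-0.01 to 0.34) and -0.59 (-0.82 to -0.36).

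By the distance between the pairs of log2 ratios (ld-1 and ld-2, each against the shared wild type library), the rows outside the families most like miR319b were miR166k, miR166a//miR166e and miR1859. The row listed under miR166k alone lay at a distance of 0.249, with 172, 226 and 60 reads and ratios of 0.35 and -0.92. More abundant miR166 rows were less like miR319b. The row shared by miR166k and miR166l had 2644, 2982 and 1377 reads, at 0.13 and -0.34. The miR166a//miR166b//miR166c//miR166d//miR166f//miR166j row had 13554, 13632 and 6622 reads, at -0.03 and -0.43. The miR166a//miR166e row had 175, 227 and 82 reads, at 0.33 and -0.49, and miR1859 had 7297, 8795 and 3170 reads, at 0.23 and -0.60. These likenesses rest on 3 libraries.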

How the data were processed

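Small RNA of 20 to 30 nt from young panicles was sequenced on an Illumina MiSeq after library construction (NEXTFlex Small RNA-seq v3), per the labels' protocols. The authors deposited unscaled read counts (per the file headers), and each mature sequence has its own row. No label or header names the trimming, the mapping, the counting rules, the annotation release or the precursor arms.

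Library sizes were scaled by TMM, a trimmed mean of log ratios, over the whole table (edgeR 4.0.16, R 4.3.3), with factors of 1.00, 0.858 and 1.16 for wild type, ld-1 and ld-2. Ratios have Clopper-Pearson intervals given both counts, proportions have binomial intervals and their ratios conditional exact intervals (Python 3.11.15, scipy 1.17.1, numpy 2.4.6, pandas 2.3.3; matplotlib 3.10.9). Levels have exact Poisson intervals. Reads are not independent molecules, so intervals and limits cover counting error only. Intervals and the listing rule were run on simulated Poisson counts, the model that the intervals assume, without TMM scaling or spread between plants. That run therefore does not address either of these. Edits are insertions, deletions or substitutions.

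Other settings tried were DESeq2 1.42.0 size factors, RPM of all miRNA reads, library sizes leaving out the 5 most abundant rows, TMM without the members or without miR2118, 1 draw of libraries thinned to 66642 reads, 0.5 or 5 reads added, a 99% interval, other read minimums (none, 100), a 1.5-fold threshold and shares of both families. TMM over the tested rows was added after seeing the data. The members, the lists and the rules for naming were chosen with earlier results of these data known: every member, the 3 rows nearest to miR319b, and the most abundant tested rows of each list, up to 3. The positions of these genes were not analysed here.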

Additional observations from a re-analysis of the deposited data

Results flagged for a closer look

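Every tested row of the families, and every sum, had a positive log2 ratio to wild type in ld-1 and a negative one in ld-2, though the ld-1 interval of miR159f (0.24, -0.08 to 0.55) included 0 and, with RPM of all miRNA reads, so did those of miR159f (0.01) and miR319a (0.36). An exception on the ld-2 side came with RPM of all miRNA reads, where miR159a//miR159b in ld-2 was at 0.0020, the miR159 sum at -9.3e-05 and the sum of both families at -0.0056, each with an interval that included 0. The 8 values below drew attention for the opposite signs; with 1 library per genotype the difference between the mutants was not tested, and the sums are made of the same rows. As log2 ratios of ld-2 to ld-1, the rows were at -0.55 for miR159a//miR159b, -1.44 for miR159f, -1.85 for miR319a and -1.30 for miR319b. The sums were at -0.56 for miR159, -1.37 for miR319, -0.56 for both families and -1.38 for both without miR159a//miR159b. With RPM of all miRNA reads, miR159a//miR159b was at -0.12, the miR159 sum at -0.12 and the sum of both families at -0.13.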

How the results depend on the processing

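No paired analysis was possible because each genotype has 1 library. Of 120 member ratios under an alternative, 117 kept their direction and their side of the listing rule, as did 82 of 84 family sums and all 48 ratios of proportions, and 64 of 66 counts of listed members stayed equal or within 1.5 times; the exceptions among ratios came with RPM of all miRNA reads. Under it miR159a//miR159b in ld-2 against wild type turned above 0, to 0.0020 (-0.02 to 0.02), and miR159f in that comparison came to -0.998, so that 1 member was listed lower in place of 2. Under it too, ld-2 against ld-1 came to -0.86 for miR319b, -0.93 for the miR319 sum and -0.94 for the minor rows summed, short of 2-fold, so that 2 members were listed lower in place of 3. With a 1.5-fold threshold 1 member, miR319a, was listed higher in ld-1, and 3 in place of 2 were listed lower in ld-2 against wild type, miR319b being the one added. As a share of both families, miR319a was 0.156%, 0.184% and 0.0752% (wild type, ld-1, ld-2), values lower by construction. Depth limits ld-2 most, where miR319a rests on 23 reads.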
